A study of Mus musculus with 6 samples.

Results

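The genes described here encode 10 enzymes of tryptophan breakdown and NAD synthesis. They were chosen by symbol (Qprt, Kmo, Kynu, Haao, Acmsd, Afmid, Nampt, Nadsyn1, Naprt and Nmnat1), and all 10 were found among the 17933 genes of the deposited table. RNA was measured in whole kidney of male wild-type C57BL/6 mice, 6 to 8 weeks old and weighing 24 to 26 g, in 3 control samples and 3 kidney stone samples collected at day 12. Kidney stone mice received glyoxylic acid, an oxalate precursor, at 120 mg/kg into the peritoneum each day for 12 days, and control mice received the same volume of saline. Both groups carry the same genotype, and the model forms calcium oxalate crystals in the kidney. The labels number 3 samples per group without saying in so many words that each is a separate mouse, so the p-values reflect only how these samples spread, and that spread may be technical. Values of single samples are listed in the order of replicates 1, 2 and 3.

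NAD, the redox cofactor that sirtuins, PARP enzymes and CD38 also consume, is made along 3 routes. In the de novo route tryptophan is opened to formylkynurenine by TDO2, IDO1 or IDO2. AFMID then releases kynurenine, KMO hydroxylates it, KYNU cleaves the product to hydroxyanthranilate, HAAO opens that ring, and QPRT turns the resulting quinolinate into nicotinic acid mononucleotide. ACMSD removes the product of HAAO before it becomes quinolinate, and so diverts carbon away from NAD. In the salvage routes NAMPT converts nicotinamide and NAPRT converts nicotinic acid to their mononucleotides. NMNAT enzymes then add the adenylyl group, and NADSYN1 completes the molecule in the routes that pass through nicotinic acid. Kidney and liver are the main organs of de novo NAD synthesis, and in the kidney these enzymes are mostly found in the proximal tubule.

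The kynurenine steps moved apart in stone kidneys. Transcripts of Afmid, Kmo, Haao and Acmsd were lower, by 1.49-fold to 2.36-fold in mean FPKM, which is fragments normalized for gene length and library total. Kynu, which acts between Kmo and Haao, was 14.8-fold higher. Qprt, whose enzyme makes nicotinic acid mononucleotide in the de novo route, had 39.2 ± 1.00 FPKM in control and 39.6 ± 3.37 FPKM in stone kidneys (SD, n = 3 each). Nampt of the nicotinamide salvage route was 1.42-fold higher.

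Of the 10 members, all of which reached the mean of 1 FPKM required for testing, 2 rose and 5 fell (limma, Benjamini-Hochberg adjusted p below 0.05). Over all 12319 tested genes 57.4% were called, 43.5% higher and 13.9% lower, and the median log2 fold change was -0.22 for the members and 0.21 for all tested genes. These differences are on the log2(FPKM + 1) scale, where low genes appear to move less than their FPKM do. The median of all genes depended on the scaling of the samples. Median-of-ratios scaling moved the median of all genes by -0.22 and called 46.3% of changed genes higher, against 75.8% as deposited, while equal FPKM sums moved it by 0.24 and called 91.4% higher. Among the members, 1 was then called higher and 6 lower with median-of-ratios scaling (22.5% and 26.2% of all genes), and 4 higher and 3 lower with equal FPKM sums (68.5% and 6.47% of all genes). The equal-sum values turn on Kap, an abundant androgen-regulated transcript of the proximal tubule, which took 19.3% to 23.2% of the summed FPKM in control and 1.18% to 2.26% in stone samples. With sums made equal over all genes but Kap, 2 members were called higher and 5 lower (36.8% and 14.9% of all genes), as in the deposited scaling.

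**Figure D1:**
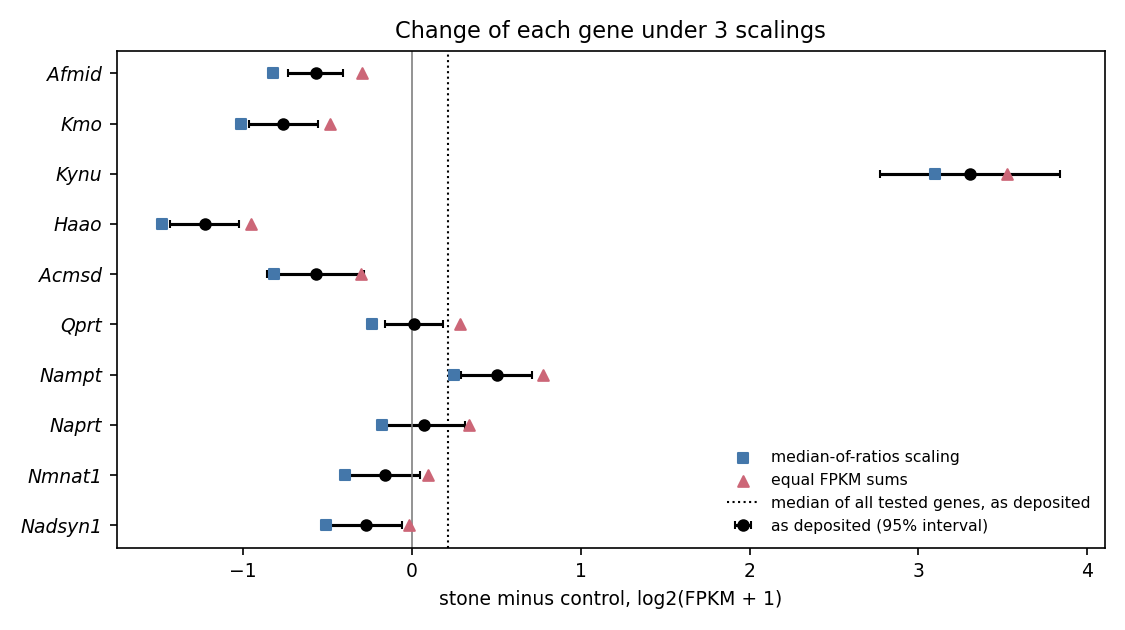
Difference between stone and control kidneys for each of the 10 genes in log2(FPKM + 1), as deposited (black, with the 95% interval of the limma fit) and under 2 other scalings (squares and triangles). Afmid, Kmo, Haao and Acmsd lie below 0 and Kynu above 0 under all 3 scalings, while Qprt, Naprt and Nmnat1 change sign.

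The promoters of Afmid, Kmo and Haao are shown as those of 3 kynurenine genes that fell. RefSeq windows (GRCm38.p6) were used for 7 of the 10 members, Kynu and Naprt had no entry, and that of Acmsd, which also fell, is not used here. Each line gives the 250 bases before the start of transcription, 5′ to 3′ on the gene's strand, and capitals mark a match to a searched motif.
Afmid: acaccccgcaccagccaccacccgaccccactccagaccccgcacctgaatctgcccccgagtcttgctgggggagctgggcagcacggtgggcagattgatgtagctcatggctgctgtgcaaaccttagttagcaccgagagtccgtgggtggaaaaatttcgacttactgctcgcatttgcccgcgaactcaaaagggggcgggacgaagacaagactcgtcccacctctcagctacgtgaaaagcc
Kmo: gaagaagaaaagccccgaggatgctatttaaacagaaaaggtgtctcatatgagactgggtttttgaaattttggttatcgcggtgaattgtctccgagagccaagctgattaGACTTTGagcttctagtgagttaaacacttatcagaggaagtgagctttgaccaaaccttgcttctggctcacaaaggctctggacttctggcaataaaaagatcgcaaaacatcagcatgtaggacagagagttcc
Haao: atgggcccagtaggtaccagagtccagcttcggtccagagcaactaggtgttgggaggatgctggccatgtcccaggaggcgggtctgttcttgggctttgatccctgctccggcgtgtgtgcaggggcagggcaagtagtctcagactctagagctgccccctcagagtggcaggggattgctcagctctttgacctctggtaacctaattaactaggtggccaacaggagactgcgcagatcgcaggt
The windows are chr11:117825669-117825918 on the plus strand for Afmid, chr1:175631943-175632192 on the plus strand for Kmo and chr17:83846791-83847040 on the minus strand for Haao. The Afmid and Haao windows lie inside the outer bounds of their genes, at a start that RefSeq lists there. Both strands of the full windows, which add 50 bases after the start, were searched for the HNF4 core CAAAGTC, the TATA box TATAAA and the AP-1 site TGANTCA. HNF4 factors drive many proximal tubule genes. The Kmo window held the HNF4 core, read as GACTTTG and beginning 137 bases before the start, and 4.44% of all 32850 windows hold it. That was the only match in the member windows, so none overlapped another. The TATA box and the AP-1 site, held by 13.6% and 7.81% of all windows, were in 0 of the 8 member windows. A match is a description of the letters only.

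The same windows differed in base composition. Of the kynurenine genes that fell, Kmo held 7 CG pairs in 300 bases, Haao 10 and Afmid 18, against a median of 7 over all windows. Nampt, which rose, held 36, Nadsyn1 held 27, both Nmnat1 windows held 28 and Qprt held 7. GC content ran from 44.3% in the Kmo window to 76.3% in the Nampt window, with a median of 52.7% over all windows.

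Afmid, which encodes the formamidase that releases kynurenine, lies on the plus strand of chromosome 11 between 117825503 and 117839908. Afmid stood at 63.7, 60.7 and 56.7 FPKM in the controls and at 42.7, 39.8 and 38.4 FPKM in the stone kidneys. Every stone value lay below every control value, and the stone samples differed little among themselves. Afmid fell by 0.57 log2 units (SE 0.0695, limma adjusted p = 0.000605) and was called lower in all 16 alternative settings. The groups also did not overlap for 66.3% of all tested genes, 49.8% higher and 16.5% lower in stone kidneys. The end of Afmid shares 585 bases with Tk1, the thymidine kinase gene on the opposite strand, which went from 6.07 to 11.2 FPKM on average. The sources used here do not say whether fragments were assigned by strand, so reads in the shared part cannot be told apart.

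Kmo, the mitochondrial hydroxylase of kynurenine, lies on the plus strand of chromosome 1 between 175632193 and 175660853. It stood at 66.2, 66.9 and 71.2 FPKM in the controls and at 44.5, 39.6 and 35.6 FPKM in the stone kidneys. The highest stone value was well below the lowest control value. Kmo fell by 0.76 log2 units (SE 0.0871, limma adjusted p = 0.000464), or 1.71-fold in mean FPKM, and was called lower in all 16 alternative settings.

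Kynu encodes kynureninase and sits on the plus strand of chromosome 2 between 43555258 and 43683048. It stood at 0.95, 2.23 and 2.12 FPKM in the controls and at 32.9, 21.9 and 23.5 FPKM in the stone kidneys. It was the lowest of the 10 genes in each control sample, at 0.188% to 0.447% of their summed FPKM, and took 6.08% to 8.24% of that sum in stone samples. Kynu rose by 3.31 log2 units (SE 0.227, limma adjusted p = 6.33e-05). That change stood at percentile 99.8 of all tested genes, and it ran from 3.03 to 3.87 over the 16 alternative settings, in all of which Kynu was called higher.

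Haao, the dioxygenase that opens the hydroxyanthranilate ring, lies on the minus strand of chromosome 17 between 83831348 and 83848981. It stood at 202, 195 and 172 FPKM in the controls and at 86.4, 81.3 and 73.7 FPKM in the stone kidneys. Haao was the most abundant of the 10 genes in all 6 samples, and every stone value was under the lowest control value by a wide margin. It fell by 1.23 log2 units (SE 0.0866, limma adjusted p = 6.98e-05), the deepest fall among the members, at percentile 1.54 of all tested genes. Haao was called lower in all 16 alternative settings.

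Acmsd, the decarboxylase at the branch point before quinolinate, lies on the plus strand of chromosome 1 between 127729413 and 127767564. It stood at 43.5, 39.0 and 41.0 FPKM in the controls and at 33.5, 25.1 and 24.3 FPKM in the stone kidneys. Stone sample 1 stood above the other stone samples, and the groups did not overlap. Acmsd fell by 0.57 log2 units (SE 0.121, limma adjusted p = 0.00623). Equal FPKM sums gave -0.30 and ended the call (limma adjusted p = 0.0538), and held in the other 15 settings.

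Qprt, the phosphoribosyltransferase that commits quinolinate to NAD, lies on the minus strand of chromosome 7 between 127107770 and 127122029. It stood at 39.7, 38.0 and 39.7 FPKM in the controls and at 43.3, 38.9 and 36.6 FPKM in the stone kidneys. The stone values lay on both sides of the control values. The log2 difference was 0.01 with a 95% interval from -0.16 to 0.18 and did not pass (limma adjusted p = 0.896). It was -0.24 with median-of-ratios scaling (limma adjusted p = 0.0644). When FPKM sums were made equal Qprt was called higher at 0.29 (limma adjusted p = 0.0123), but it stood at -0.02 when Kap was left out of the sums (limma adjusted p = 0.830).

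**Figure D2:**
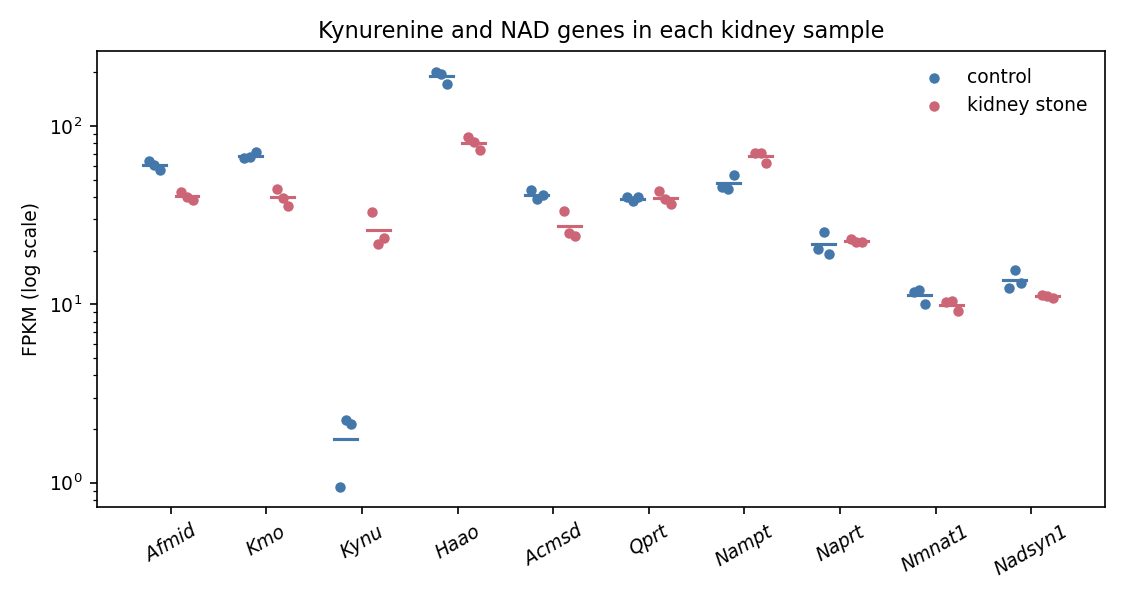
FPKM of each gene in each sample on a log axis, with control samples in blue, stone samples in red and group means as bars. The genes run in pathway order from Afmid to Qprt and then through salvage, and Kynu is the gene whose 2 groups lie farthest apart.

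Of the salvage and final steps, Nampt rose. The Nampt gene sits on the plus strand of chromosome 12 between 32820335 and 32853369 and encodes the enzyme that sets the rate of nicotinamide salvage. It stood at 45.2, 44.2 and 53.3 FPKM in the controls and at 70.5, 70.1 and 62.3 FPKM in the stone kidneys. The groups did not overlap. The rise was 0.50 log2 units (SE 0.0900, limma adjusted p = 0.00312), at percentile 76.4 of all tested genes. With median-of-ratios scaling it was 0.25 and the call was lost (limma adjusted p = 0.0668).

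Naprt, which salvages nicotinic acid, lies on the minus strand of chromosome 15 between 75890963 and 75894481. It stood at 20.5, 25.3 and 19.1 FPKM in the controls and at 23.3, 22.2 and 22.4 FPKM in the stone kidneys. All 3 stone values lay inside the control range. The log2 difference was 0.07 with a 95% interval from -0.17 to 0.31 (limma adjusted p = 0.582). It was -0.18 with median-of-ratios scaling, and when FPKM sums were made equal Naprt was called higher at 0.34 (limma adjusted p = 0.0126), a call not made when Kap was left out of the sums, where it stood at 0.04 (limma adjusted p = 0.751).

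Nmnat1, the nuclear adenylyltransferase shared by all routes, lies on the minus strand of chromosome 4 between 149467569 and 149485210. It stood at 11.7, 12.1 and 10.1 FPKM in the controls and at 10.3, 10.4 and 9.14 FPKM in the stone kidneys. The groups overlapped through control sample 3. The log2 difference was -0.16 with a 95% interval from -0.37 to 0.05 (limma adjusted p = 0.156). Nmnat1 was called lower without control sample 3 at -0.23, with median-of-ratios scaling at -0.40, after quantile normalization at -0.43 and with array weights at -0.18 (limma adjusted p = 0.0496, 0.0171, 0.0149 and 0.0359), and with equal FPKM sums it stood at 0.09. Nmnat1 shares 26 bases with Lzic and 5914 bases with Tmem274 on the opposite strand. Among the other members RefSeq also places the RNA genes Gm35993 and 2900009J06Rik over Acmsd and Gdap10 over Nampt, and the pseudogene Gm19260 over Haao, none of which has values here.

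Nadsyn1, the glutamine-dependent NAD synthetase, lies on the minus strand of chromosome 7 between 143795589 and 143822862. It stood at 12.4, 15.6 and 13.1 FPKM in the controls and at 11.3, 11.1 and 10.9 FPKM in the stone kidneys. The groups did not overlap, but the gap between them was narrow. Nadsyn1 fell by 0.27 log2 units (SE 0.0904, limma adjusted p = 0.0348), and this call held in 9 of 16 settings. It was lost without control sample 2 at -0.18 and without stone sample 1, 2 or 3 at -0.29, -0.27 and -0.26 (limma adjusted p = 0.0647, 0.0608, 0.0872 and 0.0878), and with equal FPKM sums the difference was -0.01 (limma adjusted p = 0.890).

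The order of levels, which FPKM allows because it is per length, changed between the groups. The lengths used are not known, so the order of close genes is uncertain. In all 3 control samples the order was Haao, Kmo, Afmid, Nampt, Acmsd, Qprt, Naprt, Nadsyn1, Nmnat1 and Kynu. Acmsd and Qprt were close neighbours there, at 41.2 ± 2.22 and 39.2 ± 1.00 FPKM (SD, n = 3 each), and Nadsyn1 and Nmnat1 were also close, at 13.7 ± 1.68 and 11.3 ± 1.05 FPKM. In all 3 stone samples Haao stayed first, Nampt came second and Nmnat1 last. Afmid, Kmo and Qprt took the next places in an order that varied between stone samples, at 40.3 ± 2.23, 39.9 ± 4.46 and 39.6 ± 3.37 FPKM, so that these 3 did not differ beyond their spread. The summed FPKM of the 10 genes was 479 to 506 in control and 337 to 399 in stone samples.

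Ratios between 2 members within a sample do not depend on how samples are scaled, apart from a small pseudocount. With 3 against 3 samples an exact two-sided permutation test cannot go below p = 0.1, so none of the 5 ratios could pass 0.05, and p-values were adjusted over the 5. The ratio of Acmsd to Qprt, the 2 enzymes on either side of the branch point, was 1.09, 1.03 and 1.03 in the controls against 0.774, 0.646 and 0.663 in the stone kidneys. The groups did not overlap, and on the log2 scale the ratio fell by 0.60 (exact p = 0.1, adjusted 0.125). In FPKM, Qprt thus went from slightly below Acmsd to above it. The gene lengths behind the FPKM are not known, so this crossing is less certain than the fall of the ratio. The ratio of Haao to Acmsd was 4.65, 5.0 and 4.21 in control and 2.58, 3.23 and 3.03 in stone samples, lower by more than the spread within either group (exact p = 0.1, adjusted 0.125).

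The ratio of Kynu to Kmo, 2 successive steps, was 0.0143, 0.0334 and 0.0298 in the controls against 0.738, 0.553 and 0.659 in the stone kidneys. It was higher by 4.65 on the log2 scale in stone kidneys, with no overlap (exact p = 0.1, adjusted 0.125). The ratio of Nampt to Qprt, salvage against the de novo route, was 1.14, 1.16 and 1.34 in control and 1.63, 1.80 and 1.70 in stone samples, again with no overlap (exact p = 0.1, adjusted 0.125). The ratio of Naprt to Nampt was 0.453, 0.573 and 0.358 in control and 0.330, 0.317 and 0.359 in stone samples. These last groups overlapped through control sample 3 and stone sample 3 (exact p = 0.2, adjusted 0.2).

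**Figure D3:**
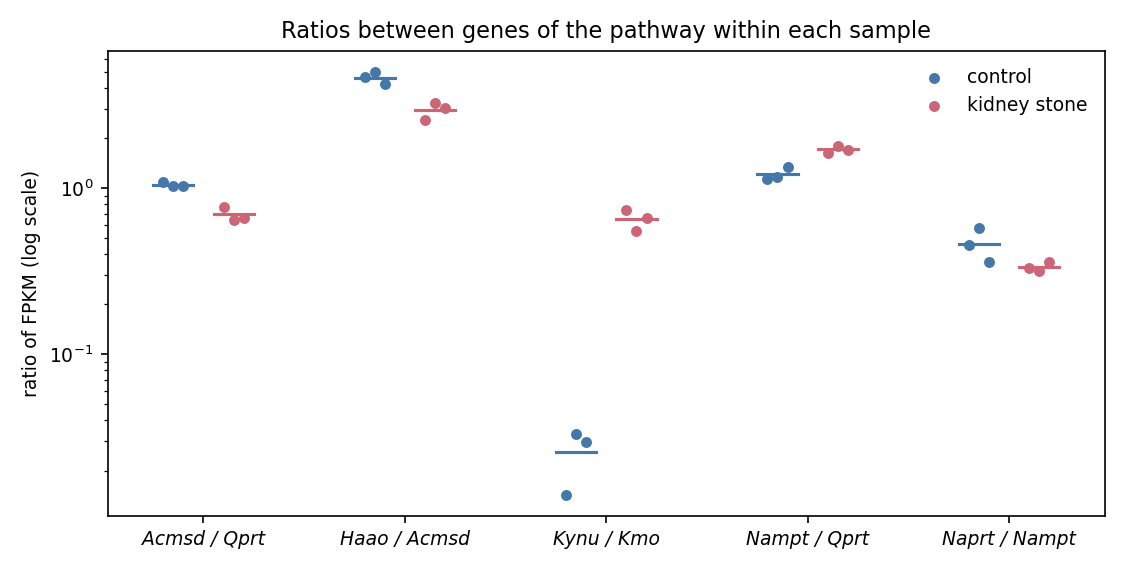
Ratio of FPKM of 2 genes within each sample on a log axis, with control samples in blue, stone samples in red and bars at the group means. Control and stone samples are apart for 4 of the 5 ratios and overlap for Naprt to Nampt.

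The rest of the pathway was followed in 6 lists with 62 genes, of which 61 were in the table and 52 were tested. In these lists 18 genes rose and 13 fell as deposited, or 34.6% and 25.0% of those tested against 43.5% and 13.9% of all tested genes. Their median log2 fold change was 0.09, against 0.21 over all tested genes. After median-of-ratios scaling 9 rose and 22 fell (22.5% and 26.2% of all genes), at equal FPKM sums 28 rose and 9 fell (68.5% and 6.47%), and at equal sums without Kap 14 rose and 13 fell (36.8% and 14.9%). The calls of Pnp, Sirt4 and Nadk that equal sums ended were kept when Kap was left out of the sums (limma adjusted p = 0.00226, 0.00766 and 0.00173).

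Tryptophan entry and the side branches fell in most tested genes. Of 6 tested genes 4 fell and 1 rose, or 66.7% and 16.7%, against 13.9% and 43.5% of all tested genes. The median log2 fold change was -0.63, against 0.21 over all tested genes. With median-of-ratios scaling 5 fell and 0 rose (26.2% and 22.5% of all genes), and with equal FPKM sums 3 fell and 1 rose (6.47% and 68.5%). Ido2, a dioxygenase of the first step, stood at 5.64, 5.34 and 5.44 FPKM in the controls and at 0.52, 0.80 and 0.43 FPKM in the stone kidneys. That is 9.38-fold lower in mean FPKM (log2 fold change -2.04, limma adjusted p = 3.31e-05). The other enzymes of that step were near 0 in every sample, with means of 0.0367 and 0.0700 FPKM for Ido1 and 0 and 0.0667 FPKM for Tdo2 in control and stone kidneys, too low to be tested.

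Aadat, an aminotransferase that diverts kynurenine to kynurenic acid, stood at 393, 399.6 and 315 FPKM in the controls and at 81.2, 112 and 80.6 FPKM in the stone kidneys. No stone value came near the control values, and it fell by 2.01 log2 units (limma adjusted p = 8.74e-05). Aldh8a1, the dehydrogenase that follows ACMSD, fell from 213 ± 5.34 to 112 ± 8.41 FPKM (SD, n = 3 each, limma adjusted p = 9.21e-05). Got2, a mitochondrial aspartate aminotransferase that can also act on kynurenine, rose by 0.20 (limma adjusted p = 0.0299). That call was lost with median-of-ratios scaling, where the difference was -0.05 (limma adjusted p = 0.660). The replicate block and equal sums without Kap ended it too, at 0.20 and 0.17 (limma adjusted p = 0.0655 and 0.0523). Leaving out control sample 1, control sample 3, stone sample 1 or stone sample 2 also ended it, at 0.20, 0.20, 0.15 and 0.22 (limma adjusted p = 0.0899, 0.0589, 0.0808 and 0.0657).

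Of 9 tested genes for tryptophan transport, serotonin and amine enzymes, 4 rose and 1 fell, or 44.4% and 11.1%, which is near the 43.5% and 13.9% of all tested genes. With median-of-ratios scaling 2 rose and 2 fell (22.5% and 26.2% of all genes). Slc7a5, the light chain of the large neutral amino acid transporter, rose from 0.853 ± 0.0971 to 3.27 ± 0.983 FPKM, and its partner Slc3a2 from 111 ± 17.2 to 164 ± 12.9 FPKM (SD, n = 3 each, limma adjusted p = 0.00168 and 0.00595). The Slc3a2 call was lost with median-of-ratios scaling (limma adjusted p = 0.0952). Maoa, a monoamine oxidase, rose from 3.13 ± 0.222 to 6.27 ± 0.989 FPKM (limma adjusted p = 0.00113). Cltrn, or collectrin, which brings neutral amino acid transporters to the brush border, fell by 0.60 log2 units (limma adjusted p = 0.00328).

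In other NAD salvage and precursor uptake 3 of 6 tested genes fell and 1 rose. These are 50% and 16.7%, against 13.9% and 43.5% of all tested genes. With median-of-ratios scaling 3 fell and 1 rose (26.2% and 22.5% of all genes), and with equal FPKM sums 2 fell and 3 rose (6.47% and 68.5%). Slc5a8, a sodium-coupled carrier of monocarboxylates and nicotinate, stood at 111, 101 and 114 FPKM in the controls and at 35.1, 53.4 and 37.7 FPKM in the stone kidneys. It fell by 1.38 log2 units, with no overlap (limma adjusted p = 0.000380). Slc22a13, an organic anion transporter that carries nicotinate and urate, stood at 65.4, 73.5 and 64.8 FPKM in the controls and at 6.99, 31.0 and 18.8 FPKM in the stone kidneys. All stone values were low but they spread widely, and the fall was 2.00 log2 units (SE 0.442, limma adjusted p = 0.00727). Pnp, the nucleoside phosphorylase that frees nicotinamide from its riboside, fell by 0.37, a call that equal FPKM sums ended (limma adjusted p = 0.00173 and 0.237). Nt5e, the ectonucleotidase CD73, rose by 0.60 (limma adjusted p = 0.00113).

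Among NAD-consuming enzymes 9 of 17 tested genes rose and 2 fell, and the median of their log2 fold changes was 0.25. These shares, 52.9% and 11.8%, and this median are near those of all tested genes (43.5%, 13.9% and 0.21). With median-of-ratios scaling 4 rose and 5 fell (22.5% and 26.2% of all genes), so the balance of this list depends on the scaling, as that of all genes does. Cd38, an NAD glycohydrolase, stood at 1.26, 1.35 and 1.82 FPKM in the controls and at 3.45, 5.23 and 5.34 FPKM in the stone kidneys. It rose by 1.18 log2 units (limma adjusted p = 0.00109). Parp3 and Parp2, which encode DNA damage-responsive PARP enzymes, rose. The first went from 11.4 ± 0.201 to 18.8 ± 0.540 FPKM, the second from 7.07 ± 0.496 to 11.3 ± 0.811 FPKM (SD, n = 3 each, limma adjusted p = 0.000156 and 0.000931). The mitochondrial sirtuin Sirt3 fell from 57.1 ± 4.08 to 36.2 ± 2.79 FPKM (SD, n = 3 each, limma adjusted p = 0.000698). Sirt4, also mitochondrial, fell by 0.32, a call that equal FPKM sums ended (limma adjusted p = 0.00650 and 0.406).

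In NAD phosphorylation, mitochondrial import and clearance 3 of 7 tested genes fell and 1 rose. These are 42.9% and 14.3%, against 13.9% and 43.5% of all tested genes. With median-of-ratios scaling 5 fell and 1 rose (26.2% and 22.5% of all genes), and with equal FPKM sums 2 fell and 2 rose (6.47% and 68.5%). Nnmt, which methylates nicotinamide and so removes it from salvage, stood at 0.47, 1.21 and 0.40 FPKM in the controls and at 4.04, 4.46 and 5.26 FPKM in the stone kidneys. The groups were far apart, and it rose by 1.75 log2 units (limma adjusted p = 0.000397). The mitochondrial NAD kinase Nadk2 fell from 33.8 ± 2.61 to 21.4 ± 0.575 FPKM, and Nudt12, a hydrolase of nicotinamide dinucleotides, from 29.2 ± 1.96 to 18.2 ± 0.606 FPKM (SD, n = 3 each, limma adjusted p = 0.000422 and 0.000338). The cytosolic kinase Nadk fell by 0.30, a call that equal FPKM sums ended (limma adjusted p = 0.00319 and 0.761).

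Of 7 transcription regulators of proximal tubule metabolism 2 rose and the other 5 did not pass as deposited. The share that rose was 28.6%, against 43.5% of all tested genes. With median-of-ratios scaling 1 rose and 2 fell (22.5% and 26.2% of all genes). After quantile normalization 0 rose and 1 fell, where 2762 and 3108 of all 12319 tested genes did. Hnf4a, named after its values were seen because of the motif search, averaged 215 ± 13.8 against 223 ± 20.2 FPKM (SD, n = 3 each), short of the threshold (limma adjusted p = 0.602). Ppargc1a, a coactivator known to promote de novo NAD synthesis in the kidney and also named after its values were seen, averaged 14.7 ± 3.30 against 15.97 ± 1.64 FPKM, also short of it (limma adjusted p = 0.5002). Ahr, the receptor that kynurenine can activate, rose by 0.69, and the fatty acid-sensing receptor gene Ppara by 0.49 (limma adjusted p = 0.00808 and 0.0103). The Ahr call was lost after quantile normalization, and the Ppara call both there and with median-of-ratios scaling (limma adjusted p = 0.0633, 0.0747 and 0.144).

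**Figure D4:**
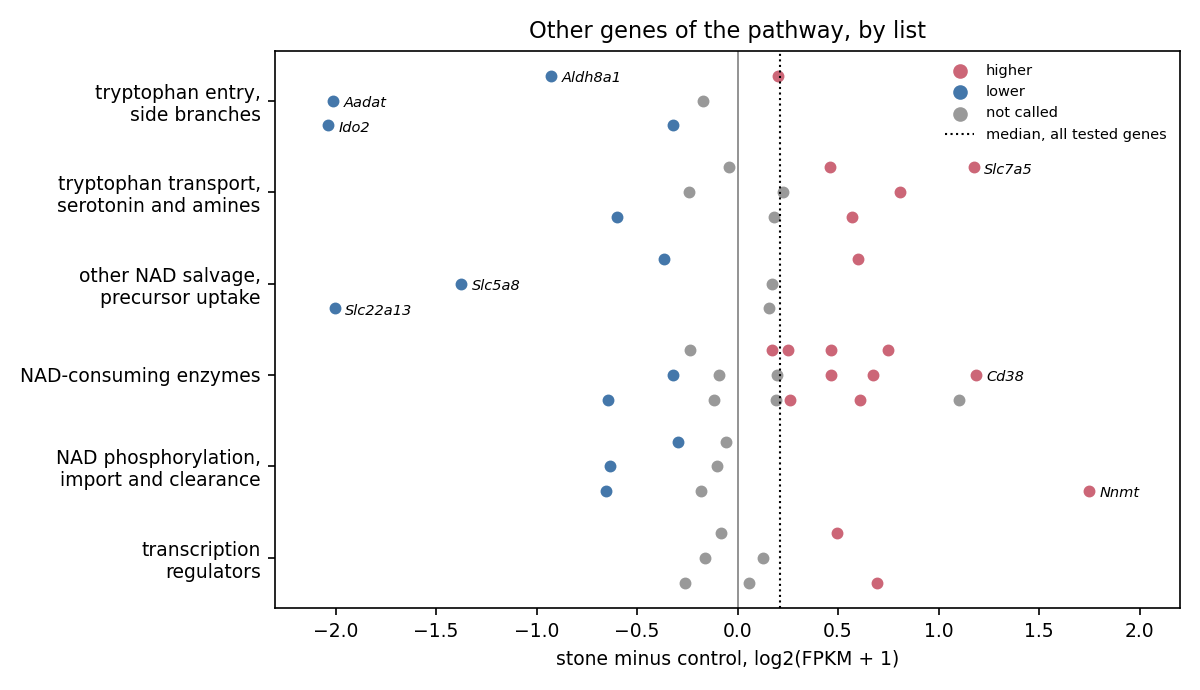
Difference between stone and control kidneys in log2(FPKM + 1) for the 52 tested genes of the 6 lists, with each point a gene coloured by its call. Aadat, Ido2 and Slc22a13 lie near -2 and Nnmt at 1.75, and most other genes lie between -1 and 1.

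Cell type markers moved between the groups as well. In bulk tissue, fewer cells of a type and less RNA per cell cannot be told apart. Of 12 proximal tubule markers 7 fell and 1 rose, or 58.3% and 8.33%, against 13.9% and 43.5% of all tested genes. Their median log2 fold change was -0.51, against 0.21 over all tested genes. Their summed FPKM was 7783 to 8810 in control and 4478 to 5432 in stone samples. Most of the control sum came from Slc34a1, Miox, Slc22a12 and Slc7a13, at 2617, 2267, 1006 and 704 FPKM on average, all of which fell. Single markers ran from -4.54 for Slc7a13 to 0.96 for Slc5a12. Haao and Kmo, with changes of -1.23 and -0.76, lay below the proximal tubule median, and Afmid and Acmsd, both at -0.57, lay close to it. The other members lay above it, among them Qprt and Nampt at 0.01 and 0.50. Of 10 macrophage markers 9 rose, where 43.5% of all tested genes did. The 10 summed to 73.7 to 79.8 FPKM in control and 184 to 326 FPKM in stone samples. In stone samples 1, 2 and 3 the macrophage sum was 184, 326 and 250 FPKM, and Kynu stood at 32.9, 21.9 and 23.5 FPKM. The 5 neutrophil markers, of which 3 were tested and all 3 rose, summed to 2.14 to 5.51 FPKM in control samples. In stone samples 1, 2 and 3 that sum was 29.9, 20.9 and 20.1 FPKM. S100a8 (18, 9.58 and 7.21 FPKM) and Retnlg (1.82, 1.01 and 1.16 FPKM) were highest in stone sample 1, as Kynu was. S100a9 was highest in stone sample 3, at 9.8 FPKM. Csf3r and Cxcr2 were highest in stone sample 2, at 1.98 and 0.49 FPKM. Among the stone samples Kynu was lowest in sample 2 and the neutrophil sum in sample 3. No marker of these lists was at 0 in all samples, and the part of these cell types in the results was not tested.

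Liver is the other main organ of this pathway. Of the 6 hepatocyte markers 4 were tested and 3 fell, or 75%, where 13.9% of all tested genes did. The 6 summed to 289.8 to 314 FPKM in control and 106 to 296 FPKM in stone samples. Most of that sum came from Ttr, the transthyretin gene, which averaged 207 FPKM in control and 50.1 FPKM in stone kidneys, and from Serpina1a, of a family of near-identical genes, which averaged 74.2 FPKM in control and stood at 54.1, 229.9 and 146 FPKM in stone samples, short of the threshold (limma adjusted p = 0.216). Ahsg was listed at 0 in the controls and at 0.08, 0 and 0.23 FPKM in the stone samples. Alb, the albumin gene, averaged 3.98 and 1.31 FPKM in control and stone kidneys. The 5 markers of T, NK and B cells in the table summed to 2.32 to 4.37 FPKM in control and 0.63 to 1.41 FPKM in stone samples. Of 6 fibroblast and myofibroblast markers 5 rose, where 43.5% of all tested genes did. Their sums were 31.3 to 41.1 FPKM in control and 90.3 to 154 FPKM in stone samples. Of the endothelial markers 3 of 5 rose, of the podocyte markers 4 of 5, and of the markers of loop, distal tubule and collecting duct 2 of 8 rose and 3 fell, where 43.5% and 13.9% of all tested genes did. Their part in the results was not tested.

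**Figure D5:**
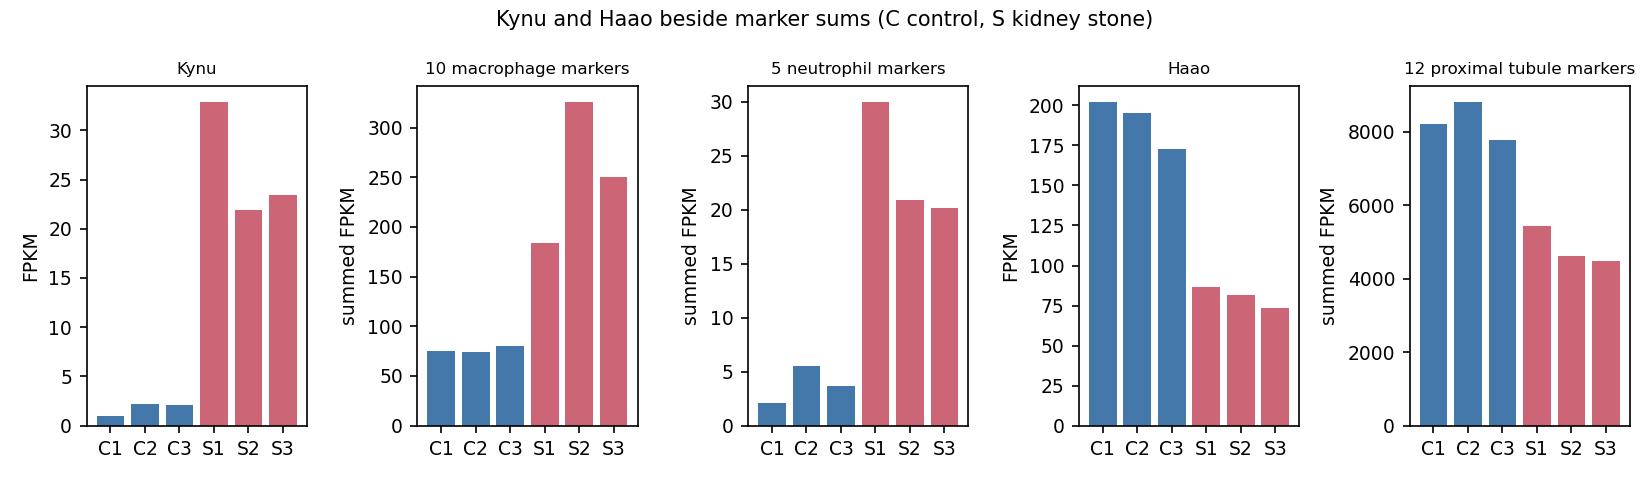
FPKM of Kynu and Haao beside the summed FPKM of 10 macrophage, 5 neutrophil and 12 proximal tubule markers in each sample, on linear axes that start at 0. Haao and the proximal tubule sum are lower in all 3 stone samples than in any control sample. Kynu and the macrophage and neutrophil sums are higher there. The order among the stone samples was not tested.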

How the data were processed

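Total RNA from whole kidney was sequenced after second-strand synthesis with dUTP, per the labels' protocols. Reads were aligned with HISAT2 2.0.4 to GRCm38.p6, per the submitters' processing notes, while the quantifying program is not named there. The deposited values are FPKM made by the authors, 1 column per sample, with column sums of 609705 to 758514. Absolute depth is unknown, so no counting intervals are given. In 53 genes whose low values were taken as 1 fragment, the median value of a fragment in a sample lay between -0.0352 and 0.0601 log2 units of the mean of the samples. It was higher in each control sample than in each stone sample. Genes were kept only where their nonzero values were alike, so this closeness was partly set by that choice and does not show equal depth.

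The 12319 genes averaging at least 1 FPKM were fitted on log2(FPKM + 1) with limma 3.58.1 in R 4.3.3 (eBayes with trend), stone against control, two-sided, with Benjamini-Hochberg adjustment over all tested genes. Ratios used a pseudocount of 0.1. The fit was tested before use on simulated data in which 200 genes were changed, a far smaller share than was called in the real data. It recovered 46.3%, 85.1% and 100% of changes of 0.5, 1 and 2 log2 units, with 8 false calls among 162. Median-of-ratios factors were computed on the FPKM.

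Named genes are the 10 members and, from each pathway list, up to 3 called genes in each direction with the smallest p. A listed regulator is not reported here, and the list counts leave that gene out. The members and lists were chosen with earlier results of these data known. Gene positions come from RefSeq (GRCm38.p6) and strands from GENCODE M21, of the same build. Alternatives covered pseudocount, filter, scaling, spread model, replicate block and each sample left out.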

Additional observations from a re-analysis of the deposited data

How the results depend on the processing

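The 16 alternative settings left Afmid, Kmo, Haao and Kynu called in the same direction, while Qprt, Naprt and Nmnat1, and Got2 of the 23 other pathway genes named by rule, changed sign in some. Qprt stood at -0.24 with median-of-ratios scaling, -0.095 after quantile normalization, -0.022 with equal FPKM sums without Kap and -0.020 with array weights, and ran from -0.051 without stone sample 1 through -0.0085 without control sample 2 to 0.066 without stone sample 3. Naprt stood at -0.18 and -0.11 with median-of-ratios scaling and after quantile normalization, and ran from -0.012 without control sample 3 to 0.18 without control sample 2. Nmnat1 stood at 0.093 with equal FPKM sums, and Got2 at -0.052 with median-of-ratios scaling. Over all tested genes, median-of-ratios scaling called 2776 higher and 3222 lower, quantile normalization 2762 and 3108, and equal FPKM sums 8440 and 797, against 5356 and 1711 as deposited. Members called were 1 higher with median-of-ratios scaling and 4 higher and 3 lower with equal FPKM sums, against 2 and 5. Other pathway genes called higher were 11 with a mean of at least 5 FPKM, which tests fewer genes, 9 with median-of-ratios scaling, 11 after quantile normalization and 28 with equal FPKM sums, against 18. Those called lower were 22 with median-of-ratios scaling, 20 after quantile normalization and 20 with array weights, against 13. Over all tested genes array weights called 6534 higher and 2213 lower, so calls grew there as well. With a mean of at least 5 FPKM 3859 of 9019 tested genes were called higher. The log2 ratio of Kynu to Kmo moved from 4.65 to 4.07 with a pseudocount of 1, which weighs on the low control values of Kynu. Beyond these constructions the cause was not tested.

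The replicate numbers did not pair the samples: deviations of same-numbered samples correlated at 0.00750, -0.220 and -0.0397. With the replicate block 2 members were higher and 4 lower, Nadsyn1 losing its call (limma adjusted p = 0.0537), 15 other pathway genes were higher and 13 lower, Got2 losing its call (limma adjusted p = 0.0655), and over all genes 4861 were higher and 1517 lower. Depth is unknown, so counting error in the low values of Kynu, Ido2 and Nnmt could not be set apart from the spread between samples.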
